A study of Mus musculus with 18 samples.

Results

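The 45 genes described here carry the names of constitutive proteasome subunits and assembly factors. They were taken by name as every gene of the count table that begins with Psma, Psmb, Psmc, Psmd, Psme or Psmg and a digit, with the immunoproteasome subunits Psmb8, Psmb9 and Psmb10 left out. The table held 21734 protein-coding genes, and 44 of the 45 members had enough counts to be tested. By role they comprise 7 alpha and 7 beta subunits of the 20S core, 6 ATPases and 11 non-ATPase subunits of the 19S cap, 7 assembly factors, 4 activators and 2 subunits of other tissues, the testis alpha subunit Psma8 and the thymus beta subunit Psmb11. The remaining gene, Psmc3ip, meets the name rule, although it encodes a factor of meiotic recombination and is no part of the proteasome.

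RNA was sequenced from bone marrow-derived macrophages (BMDMs), which are grown from marrow in the growth factor M-CSF. Marrow came from 6- to 7-month-old mice of a 129/B6 mix, 3 of each genotype, and was cultured for 8 to 9 days with 10 ng/ml M-CSF. The genotypes were wild-type for miR-146a (WT), null for it (KO) and the non-seed swap 3′F. In 3′F miR-146a keeps its seed, while the bases toward its 3′ end are those of the opposite strand of the hairpin. BMDMs of each genotype received fresh medium without LPS (resting) or with 1 ng/ml LPS, the bacterial lipopolysaccharide sensed by TLR4, and were harvested after 16 h, which gives 6 groups of 3 libraries.

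The proteasome degrades proteins tagged with ubiquitin. Its 20S core is a barrel of alpha rings around beta rings, in which Psmb6, Psmb7 and Psmb5 carry the caspase-like, trypsin-like and chymotrypsin-like sites. The 19S cap binds ubiquitin, unfolds the substrate with its ATPases and feeds it into the core, while Psmg chaperones assemble the core and Psmd5, Psmd9 and Psmd10 assemble the base of the cap. In cells exposed to interferons Psmb9, Psmb10 and Psmb8 take the places of the 3 constitutive sites, and the PA28 activator made of Psme1 and Psme2 can cap the core in place of 19S. In macrophages these changes are known for their part in making peptides for MHC class I.

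The microRNA that differs between the genotypes is shown first, because 3′F keeps its seed and KO lacks this microRNA. By the authors' account KO keeps miR-146b, whose mature sequence differs from miR-146a only in the 3′ region. In their small RNA sequencing miR-146b appeared higher in KO BMDMs. In mature miR-146a-5p, encoded at chr11:43374435-43374456 on the minus strand of GRCm38, the seed (bases 2 to 8) is in capitals. The reverse complement of the seed was searched in the longest annotated 3′ UTR of each gene. It stands in 2 of the 45 members, or 4.44%, beside 11.9% of the 20803 genes of the table with a 3′ UTR. Those members are the 19S lid subunits Psmd3, with its site at chr11:98695960-98695979, and Psmd11, with its site at chr11:80471853-80471875, both on the plus strand of GRCm38. The Psmd3 match starts at base 368 of a 3′ UTR of 379 bases, and that of Psmd11 at base 152 of 1539. The shares above were not matched for 3′ UTR length, which ran from 44 bases in Psme2 to 3321 in Psmb11. Capitals mark the bases that match the seed.
miR-146a-5p: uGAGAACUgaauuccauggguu
Psmd3 site: caataaaaAGTTCTCcagag
Psmd11 site: aggcggccAGTTCTCatgtaatc

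Promoter windows of 300 bases, from 250 before to 50 after a transcript start, were taken from RefSeq on GRCm38.p6, where 37 of the 45 members had one. Both strands were searched for the core of the antioxidant response element (TGACNNNGC), an interferon-stimulated response element (GAAA, 2 bases of any kind and GAAA again) and a kappaB site (GGG, 5 bases of any kind and CC). The first stands in windows of 6 of the 37 members (Psmb5, Psmb6, Psmc6, Psmd9, Psmd12 and Psme4), or 16.2%, beside 14.0% of the 27025 genes with a window. The second stands in windows of 5 members (Psmb3, Psmd4, Psmd9, Psmg4 and Psme1), or 13.5%, beside 3.99% of genes. The third stands in windows of 22 members, or 59.5%, beside 53.5% of genes. A match describes the letters of the window and is no evidence of binding. The windows of both PA28 genes, which were called higher with LPS in each genotype, and of 2 catalytic subunits are printed, with every motif match in capitals. Psme1 lies at chr14:55578244-55578543 (plus strand), Psme2 at chr14:55591052-55591351 (minus strand), Psmb5 at chr14:54617946-54618245 (minus strand) and Psmb6 at chr11:70525107-70525406 (plus strand). The interferon-stimulated response element of Psme1 covers bases 10 to 19 after the start on the opposite strand. Psme2 holds kappaB matches alone in this window, Psmb5 the antioxidant response core alone, and Psmb6 that core directly before its start and 1 kappaB match.
Psme1 promoter: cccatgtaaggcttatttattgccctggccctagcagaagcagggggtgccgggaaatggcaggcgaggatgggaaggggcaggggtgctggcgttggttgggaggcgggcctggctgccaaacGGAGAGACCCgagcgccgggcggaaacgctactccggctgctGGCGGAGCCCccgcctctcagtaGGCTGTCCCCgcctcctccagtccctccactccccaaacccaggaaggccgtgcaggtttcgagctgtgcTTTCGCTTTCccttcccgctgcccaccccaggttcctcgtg
Psme2 promoter: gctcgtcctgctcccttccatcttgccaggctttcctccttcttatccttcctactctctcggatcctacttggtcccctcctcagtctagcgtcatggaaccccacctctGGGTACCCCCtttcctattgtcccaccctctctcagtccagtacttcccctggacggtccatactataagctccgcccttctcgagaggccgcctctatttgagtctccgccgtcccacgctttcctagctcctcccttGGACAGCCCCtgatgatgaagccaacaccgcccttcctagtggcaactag
Psmb5 promoter: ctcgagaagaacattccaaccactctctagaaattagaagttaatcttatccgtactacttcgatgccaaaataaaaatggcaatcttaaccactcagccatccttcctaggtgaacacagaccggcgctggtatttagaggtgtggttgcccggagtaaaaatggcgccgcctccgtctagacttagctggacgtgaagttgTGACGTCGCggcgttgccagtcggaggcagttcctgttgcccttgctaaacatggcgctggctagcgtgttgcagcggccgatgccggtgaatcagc
Psmb6 promoter: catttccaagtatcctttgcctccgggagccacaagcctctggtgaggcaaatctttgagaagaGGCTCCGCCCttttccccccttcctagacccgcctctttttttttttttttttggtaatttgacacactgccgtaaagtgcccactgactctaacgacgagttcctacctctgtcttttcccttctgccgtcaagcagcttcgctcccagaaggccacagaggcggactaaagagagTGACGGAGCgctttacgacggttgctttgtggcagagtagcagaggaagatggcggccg

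Libraries held 4071084 to 19818043 counts in protein-coding genes, and the members took 0.439% to 0.778% of them. Levels are given as CPM, the CPM of edgeR for TMM-scaled library sizes, with TMM factors from 0.812 to 1.15. No batch is given in the labels. All 10 macrophage markers were detected in every group, with a summed level of 32091 to 88354 CPM, while 5 B cell markers summed to 1.17 CPM or less and 5 T cell markers to 0.724 CPM or less, with Cd3e at 0 in every library. Markers of mast cells and of erythroid cells summed to at most 0.702 CPM each, of dendritic cells to 3.98 and of fibroblasts to 3.51. Neutrophil markers summed to 12.7 to 66.3 CPM, and 5 proliferation genes summed to 938 to 1213 CPM in resting WT, 866 to 1131 in resting 3′F, 490 to 598 in resting KO, and 393 to 780 over the groups with LPS.

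A pair of resting libraries stood apart most, and members were among the genes that did so. In resting 3′F replicate 3, the shallowest library, 38 of the 44 tested members lay above the mean of replicates 1 and 2, with a median log2 difference of 0.74, while over all genes 49.4% did and the median was -0.01. This library held the highest value of all 9 resting libraries for 34 of the 44 members. The difference moved with exon length: it had a median of 1.03 over the 8 members under 1000 bases, against 0.81 over all 607 genes of that length, and of 0.27 over the 10 members over 2500 bases, against -0.13 over all 7472 such genes. In resting KO replicate 3, 41 of 44 members lay above the other replicates, with a median of 0.51 beside 0.03 over all genes. In that library 6 interferon-stimulated genes (Isg15, Ifit1, Ifit3, Mx1, Rsad2 and Irf7) summed to 6283 CPM, against 203 and 307 CPM in the other resting KO libraries and 1482 to 8205 CPM in the libraries with LPS. Counts of calls that moved over 1.5 times without these libraries are also given without them, and the part of exon length and of the interferon genes in the members' values was not tested. Resting WT replicate 1 also lay above replicates 2 and 3 in its core and cap sums. Its alpha subunits summed to 1079 CPM against 755 and 785, and its beta subunits to 970 against 715 and 730. Its activators, at 346 CPM, lay between the 331 and 375 CPM of the other replicates.

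**Figure D1:**
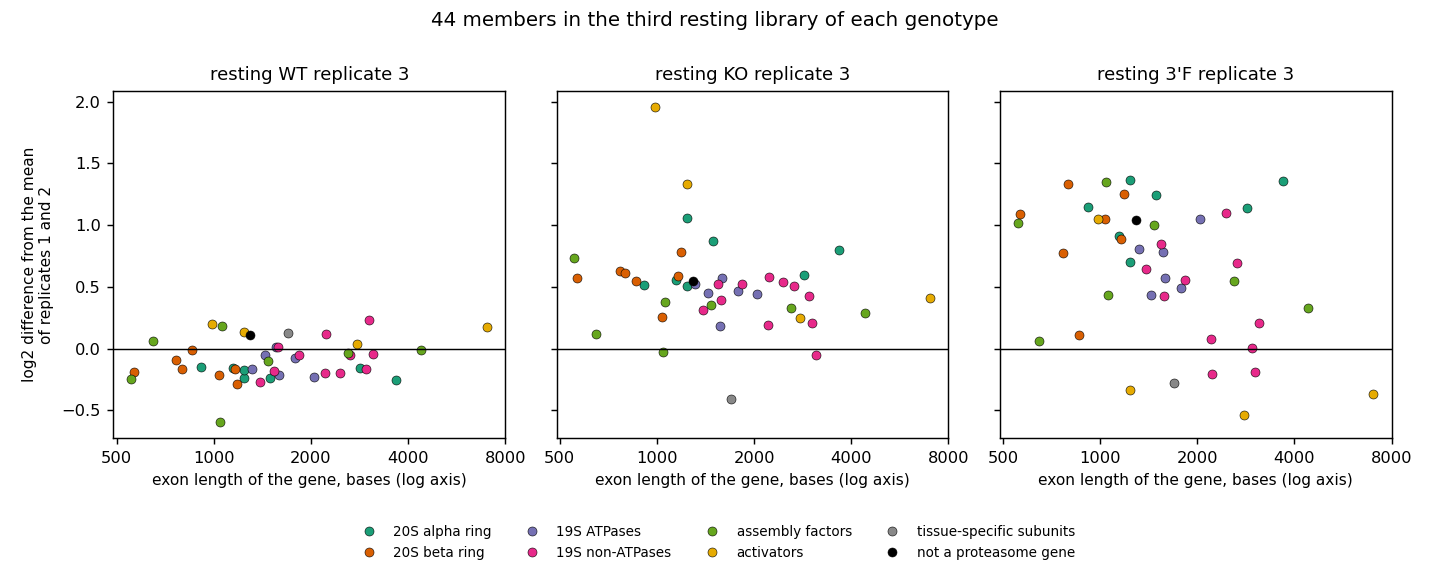
Log2 difference of 44 members in the third resting library of each genotype from the mean of replicates 1 and 2 (vertical axis) against the exon length of the gene in bases (horizontal log axis), with colours for the parts of the proteasome. Resting WT replicate 3 lies above 0 for 12 members, resting KO replicate 3 lies above 0 for 41 members, and resting 3′F replicate 3 lies above 0 for 38, most of all for short genes. In resting WT that mean includes replicate 1, whose core and cap sums lay above those of replicates 2 and 3.

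Per kb of exon, levels of the members of one complex differed several-fold as means over the 18 libraries. In the alpha ring they ran from 50.9 CPM per kb for Psma3 to 205 for Psma7, and in the beta ring from 50.9 for Psmb5 to 284 for Psmb6. The ATPases were the most even, from 64.5 for Psmc2 to 109 for Psmc1, a 1.69-fold range. Non-ATPase subunits ran from 14.8 for the lid subunit Psmd11 to 153 for the lid subunit Psmd8. Assembly factors lay lower, from 8.97 for Psmg2 to 55.3 for Psmd10. The activators ran from 24.5 for Psme3, the nuclear PA28 gamma, to 296 for Psme2. Psma8 reached 1.29 CPM per kb with 9 to 69 counts a library, and Psmc3ip 2.34 with 16 to 75 counts. Psmb11, which was not tested, had 0 counts in 15 of the 18 libraries and 5 counts in all, where a count of 0 still allows 3 counts in a library by counting error.

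With TMM scaling, LPS raised a share of the proteasome transcripts and lowered none. Calls of a rise numbered 17 of 44 members in WT, 17 in KO and 9 in 3′F, and calls of a fall 0 in each (edgeR quasi-likelihood test, Benjamini-Hochberg adjusted p under 0.05 over 11357 genes, 3 libraries against 3). Over all genes tested 28.5%, 26.9% and 31.2% were called in these comparisons, of which 16.3%, 14.3% and 17.2% of genes were higher, so that the members' 38.6% higher in WT and KO stood above that share and their 20.5% in 3′F near it. The median log2 fold change of the members was 0.45 in WT, 0.47 in KO and 0.11 in 3′F, beside 0.02, 0.02 and -0.01 over all genes. In WT 40 of 44 members had a positive log2 fold change, in KO 40 and in 3′F 28. All LPS libraries lay above all resting libraries for 30, 33 and 9 members, beside 25.9%, 23.8% and 25.1% of all genes. With total counts in place of TMM the median of all genes moved to -0.24, -0.26 and -0.21, the members' medians were 0.20, 0.19 and -0.08, and 7 members were called higher and 1 lower in WT, 5 and 1 in KO, and 6 and 5 in 3′F. The share of all genes called with total counts is not given here, so these member counts cannot be set against it. In bulk RNA a lower share of cells of a type and less RNA per cell cannot be told apart.

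The same 9 members were called higher in all 3 genotypes: the alpha subunit Psma6, the beta subunit Psmb2, the lid subunits Psmd3, Psmd7 and Psmd11, the chaperone Psmd10 and the activators Psme1, Psme2 and Psme4. Another 4 (Psma3, Psmb5, Psmc2 and Psmc4) were called in WT and KO, 4 in WT alone (Psma4, Psma5, Psmc5 and Psmd5), 4 in KO alone (Psma7, Psmb3, Psmc1 and Psmd8), and 23 in none. With total counts in place of TMM, only Psmd10, Psme1 and Psme2 of the 9 kept their call in each genotype, and over all 15 settings only Psmd10 did. The 3 comparisons share no library, but the difference between genotypes was tested only as an interaction. Without 1 library, the WT response held 10 to 22 called members, the lowest without resting WT replicate 2 and the highest without resting WT replicate 1. The KO response held 6 without resting KO replicate 1 or 2. Without resting KO replicate 3 the KO response held 30 called members, and without resting 3′F replicate 3 the 3′F response held 19, with a median log2 fold change of 0.36. The share of all genes called without 1 library is not given here. Without both libraries, 31 members were called higher in WT, 35 in KO and 25 in 3′F, all 25 in each of the 3 genotypes. Over all genes 41.9%, 44.3% and 35.2% were then called in either direction, beside 28.5%, 26.9% and 31.2% with both libraries kept. The 9 members above were among those 25. Genes called in no genotype then were the 4 Psmg chaperones, Psmd9, Psme3, Psma8 and Psmc3ip.

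**Figure D2:**
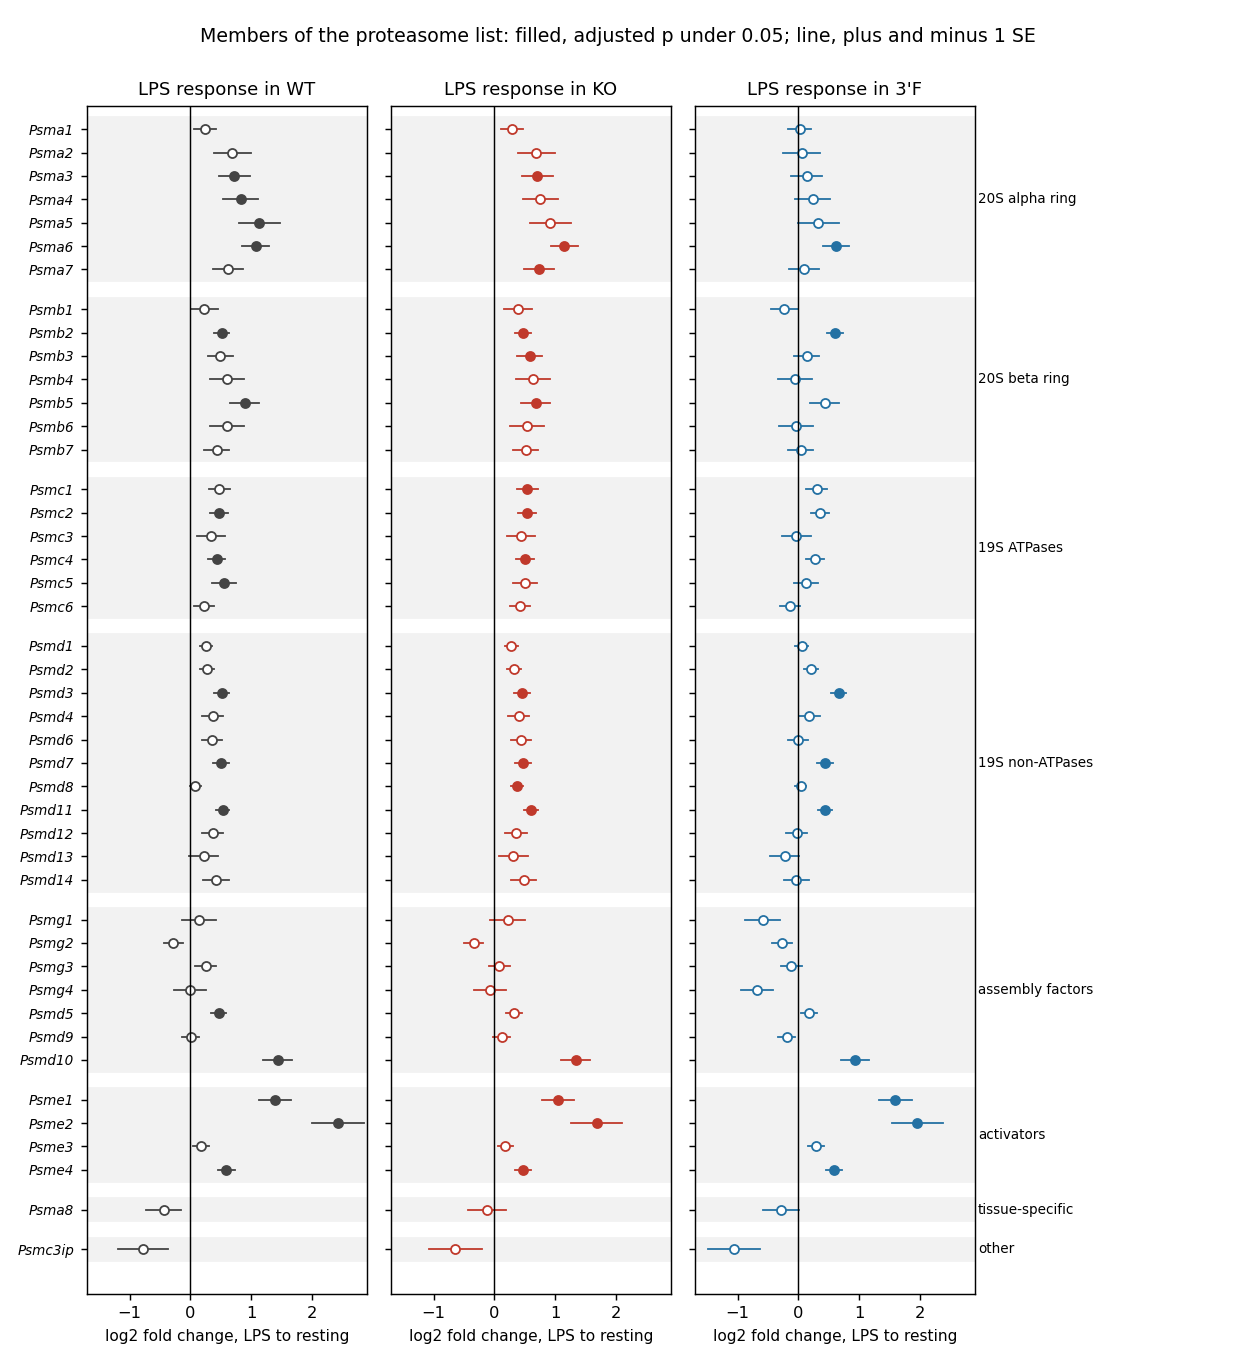
Log2 fold change from resting to LPS (horizontal axis) for 44 members, ordered by role, in WT, KO and 3′F BMDMs, with a line for plus and minus 1 SE and a filled point where the adjusted p is under 0.05. Psme2 lies farthest to the right in all genotypes, and most core and cap subunits lie closer to 0 in 3′F, whose resting replicate 3 was high for them, than in WT and KO.

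Among the members, Psme2 had the largest log2 fold change with LPS in each genotype. Psme2, or PA28 beta, stood at 86.5, 61.9 and 84.0 CPM in resting WT and at 380, 366 and 501 CPM with LPS. In KO it stood at 92.8, 88.0 and 352 CPM at rest and 520, 629 and 558 with LPS, and in 3′F at 79.8, 76.5 and 162 at rest and 436, 413 and 371 with LPS. All LPS libraries lay above all resting libraries of their genotype, and the third resting libraries of KO and 3′F lay above their other replicates. The log2 fold change of Psme2 was 2.42 ± 0.43 (SE) in WT, a 5.37-fold rise, 1.68 ± 0.42 in KO and 1.95 ± 0.42 in 3′F, with edgeR adjusted p of 0.000564, 0.0066 and 0.00249. Without resting KO replicate 3 the KO value was 2.65.

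PA28 alpha, Psme1, whose gene lies close to Psme2 on chromosome 14, rose as well. Its level was 67.1, 69.0 and 74.6 CPM in resting WT and 180, 151 and 220 CPM with LPS. Resting KO held 90.6, 74.3 and 207 CPM and KO with LPS 258, 258 and 247, while resting 3′F held 65.6, 61.8 and 50.3 and 3′F with LPS 189, 183 and 164. Groups did not overlap within any genotype, and the log2 fold changes were 1.39 ± 0.27 in WT, 1.04 ± 0.27 in KO and 1.59 ± 0.27 in 3′F (edgeR adjusted p 0.00113, 0.00785 and 0.000399). Without resting KO replicate 3 the KO value was 1.62.

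Psme4, the nuclear activator PA200, rose less. It held 134, 139 and 154 CPM in resting WT and 214, 190 and 240 with LPS, 166, 163 and 218 in resting KO and 246, 257 and 253 with LPS, and 142, 155 and 115 in resting 3′F and 202, 228 and 188 with LPS. No group with LPS overlapped its resting group, and the log2 fold changes were 0.59, 0.47 and 0.58 in WT, KO and 3′F (edgeR adjusted p 0.00409, 0.0175 and 0.00426). Psme3, which forms PA28 gamma in the nucleus, was not called in any genotype, with log2 fold changes of 0.18, 0.18 and 0.29. Its levels were 58.7, 61.5 and 61.8 CPM in resting WT and 68.6, 70.9 and 66.1 with LPS, 62.1, 69.4 and 77.9 in resting KO and 77.5, 84.7 and 75.0 with LPS, and 67.6, 64.3 and 45.2 in resting 3′F and 67.3, 72.4 and 78.2 with LPS. The KO and 3′F groups of Psme3 overlapped.

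Among the chaperones only Psmd10 rose in all genotypes. Psmd10, known as gankyrin, holds ATPases of the 19S base during assembly, and its gene lies on the X chromosome. It stood at 55.9, 31.9 and 39.3 CPM in resting WT and 104, 120 and 120 with LPS, at 45.1, 40.1 and 54.3 in resting KO and 125, 114 and 112 with LPS, and at 44.7, 42.0 and 87.3 in resting 3′F and 118, 103 and 104 with LPS. Its groups did not overlap in any genotype. The log2 fold change was 1.44 ± 0.24 in WT, 1.33 ± 0.24 in KO and 0.93 ± 0.24 in 3′F (edgeR adjusted p 0.000329, 0.000533 and 0.00723), and 1.28 in 3′F without resting replicate 3. The base chaperone Psmd5 was called in WT alone at 0.46, and the chaperone Psmd9 had values of 0.00, 0.12 and -0.19. Of the core chaperones Psmg1 to Psmg4, none was called, and their log2 fold changes lay between -0.68 (Psmg4 in 3′F) and 0.25 (Psmg3 in WT).

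In the alpha ring, which gates the core, 4 of 7 subunits were called higher in WT, 3 in KO and 1 in 3′F, with median log2 fold changes of 0.72, 0.73 and 0.14. The KO response held 6 called alpha subunits (median 1.00) without resting KO replicate 3, and the 3′F response held 6 (median 0.61) without resting 3′F replicate 3. Without both, 6, 7 and 6 were called in WT, KO and 3′F. Psma6 led in KO and 3′F and was called in all genotypes. Its levels were 166, 118 and 125 CPM in resting WT and 258, 301 and 300 with LPS, 126, 134 and 191 in resting KO and 356, 345 and 297 with LPS, and 141, 141 and 266 in resting 3′F and 294, 252 and 292 with LPS. The groups of 3′F overlapped through resting replicate 3, and those of WT and KO did not. The log2 fold change was 1.07 ± 0.22 in WT, 1.15 ± 0.22 in KO and 0.62 ± 0.22 in 3′F (edgeR adjusted p 0.00192, 0.0011 and 0.0432), and 0.94 in 3′F without resting replicate 3. Psma5 was called in WT at 1.13 (adjusted p 0.0191), while its KO value of 0.92 (adjusted p 0.0528) and its 3′F value of 0.33 were not. The summed level of the 7 genes was 873 ± 179 CPM (SD, n = 3) in resting WT and 1457 ± 119 with LPS, 929 ± 269 and 1567 ± 72.5 in KO, and 1179 ± 572 and 1361 ± 82.9 in 3′F. The 3′F resting libraries held 827, 872 and 1840 CPM, so that its large SD came with replicate 3.

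In the beta ring 2 of 7 subunits were called higher in WT (Psmb2 and Psmb5), 3 in KO (Psmb2, Psmb3 and Psmb5) and 1 in 3′F (Psmb2). The KO count was 5 without resting KO replicate 3, the 3′F count was 3 without resting 3′F replicate 3, and without both the counts were 6, 7 and 6. Of the 3 constitutive catalytic subunits Psmb5 alone was called, in WT and KO, although without both libraries all 3 were called in each genotype, and no test compared them with each other. Psmb5, the chymotrypsin-like site and the lowest in level, held 23.5, 17.8 and 17.9 CPM in resting WT and 31.96, 40.3 and 37.9 with LPS, 19.6, 18.2 and 28.3 in resting KO and 34.1, 38.7 and 32.5 with LPS, and 17.8, 19.1 and 39.8 in resting 3′F and 32.7, 31.6 and 35.4 with LPS. WT and KO groups did not overlap, 3′F groups did, and the log2 fold changes were 0.89 ± 0.24, 0.68 ± 0.24 and 0.43 ± 0.24 (edgeR adjusted p 0.0109, 0.0461 and 0.19). Without resting 3′F replicate 3 the 3′F value was 0.80 (adjusted p 0.00282).

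Psmb6, the caspase-like site, held 220, 158 and 166 CPM in resting WT and 253, 299 and 275 with LPS, 130, 133 and 201 in resting KO and 226, 221 and 228 with LPS, and 172, 180 and 444 in resting 3′F and 264, 222 and 282 with LPS. WT and KO groups did not overlap, and the highest library of all was resting 3′F replicate 3. The log2 fold changes of Psmb6 were 0.60 ± 0.28 in WT, 0.54 ± 0.28 in KO and -0.05 ± 0.28 in 3′F, none of them called (edgeR adjusted p 0.121, 0.17 and 0.917). Without resting 3′F replicate 3 the 3′F value turned to 0.50 (adjusted p 0.0446). Psmb7, the trypsin-like site, held 149, 117 and 118 CPM in resting WT and 157, 183 and 177 with LPS, 96.1, 94.4 and 143 in resting KO and 157, 158 and 161 with LPS, and 120, 120 and 223 in resting 3′F and 168, 147 and 158 with LPS. Its log2 fold changes of 0.43, 0.51 and 0.04 were not called (edgeR adjusted p 0.136, 0.0777 and 0.902). Psmb7 was called in KO without resting KO replicate 3, at 0.74 (adjusted p 0.011), and its 3′F value was 0.35 without resting 3′F replicate 3 (adjusted p 0.0968).

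**Figure D3:**
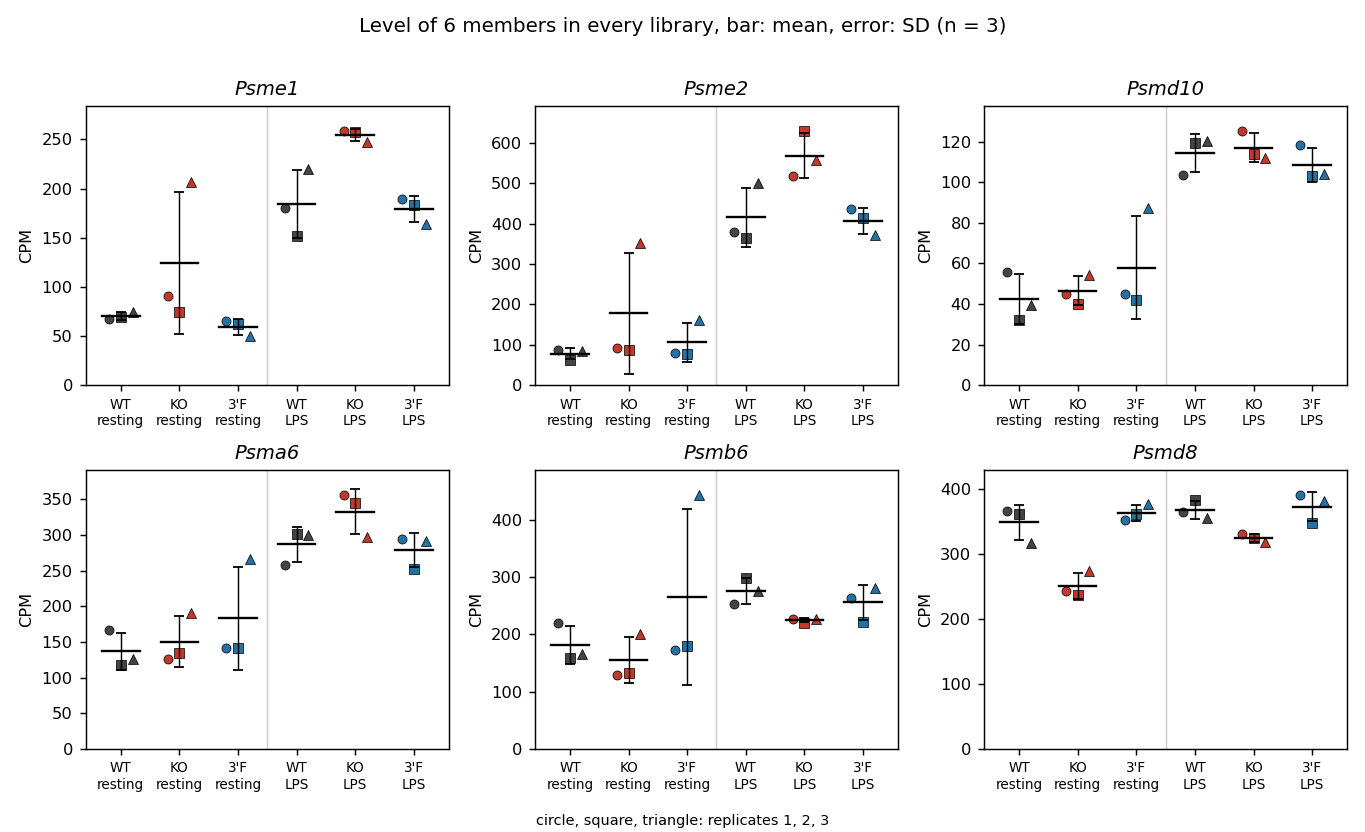
Level in CPM (vertical axis, from 0) of Psme1, Psme2, Psmd10, Psma6, Psmb6 and Psmd8 in all 18 libraries by group, with a bar for the mean and an error bar for the SD (n = 3). Psme1 and Psme2 with LPS lie above all resting libraries of their genotype, Psmb6 is highest in resting 3′F replicate 3 at 444 CPM, and Psmd8 is lowest in resting KO.

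The 19S cap had smaller medians than the alpha ring in WT and KO. Of the 6 ATPases that unfold substrates, 3 were called higher in WT (Psmc2, Psmc4 and Psmc5), 3 in KO (Psmc1, Psmc2 and Psmc4) and 0 in 3′F, with medians of 0.45, 0.50 and 0.20. In KO 5 ATPases were called without resting KO replicate 3, in 3′F 3 were called without resting 3′F replicate 3, and without both libraries 5, 6 and 5 were called. Of the 11 non-ATPase subunits, 3 were called in WT, 4 in KO and 3 in 3′F, with medians of 0.37, 0.40 and 0.05. The KO count of these was 9 without resting KO replicate 3, the 3′F median was 0.19 without resting 3′F replicate 3, and without both the counts were 9, 10 and 4. Psmd3, Psmd7 and Psmd11 of the lid were called in each genotype, with log2 fold changes between 0.44 and 0.66, and both members with a miR-146a seed match are among them. With total counts these ran from 0.18 to 0.46, and the calls of Psmd3 in WT and KO, of Psmd7 in all genotypes and of Psmd11 in WT and 3′F were lost (edgeR adjusted p 0.0863 to 0.259). The scaffold subunits Psmd1 and Psmd2 and the ubiquitin receptor Psmd4 were not called, at 0.05 to 0.40 over the genotypes, where Psmd1 overlaps another coding gene on its strand. Psmd14, the deubiquitinase of the lid, was not called either, at 0.42, 0.48 and -0.03.

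**Figure D4:**
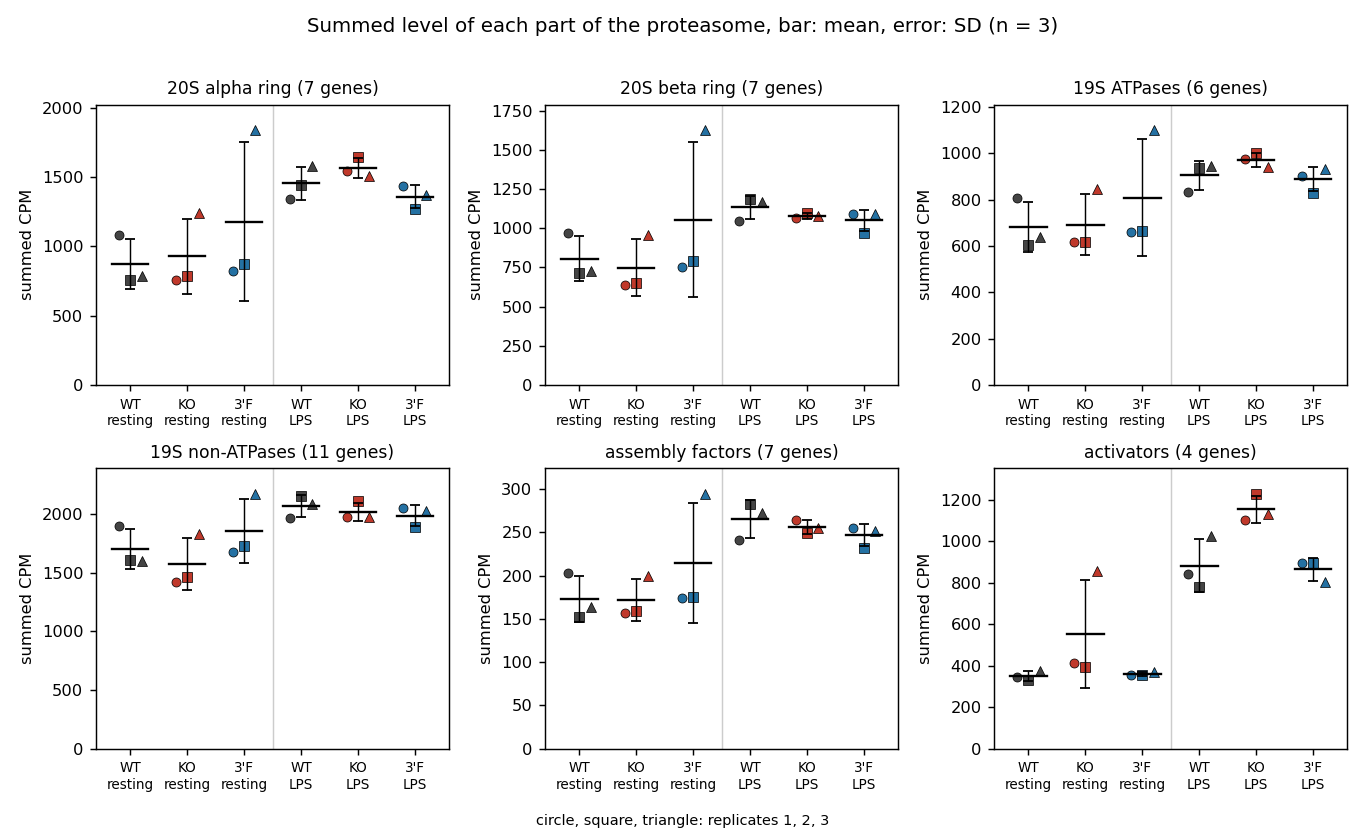
Summed CPM (vertical axes, from 0) of the members of 6 parts of the proteasome in each library, by group, with a bar for the mean and an error bar for the SD (n = 3). The activators separate LPS from resting in each genotype, although resting KO replicate 3 at 855 CPM lies within the range of WT with LPS, and core and cap sums overlap in 3′F through its resting replicate 3.

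The immunoproteasome subunits, which are not members, set the scale for the catalytic subunits they replace. Psmb8 stood at 111, 87.4 and 92.1 CPM in resting WT and 409, 293 and 563 with LPS, at 121, 108 and 581 in resting KO and 578, 730 and 626 with LPS, and at 100, 98.04 and 159 in resting 3′F and 443, 429 and 342 with LPS. Psmb9 stood at 20.4, 11.9 and 17.1 CPM in resting WT and 87.1, 56.8 and 128 with LPS, at 21.9, 17.4 and 133 in resting KO and 112, 149 and 130 with LPS, and at 17.9, 15.1 and 25.0 in resting 3′F and 97.1, 91.5 and 74.3 with LPS. Psmb10 stood at 50.5, 42.0 and 40.6 CPM in resting WT and 244, 181 and 322 with LPS, at 73.1, 65.5 and 376 in resting KO and 355, 428 and 344 with LPS, and at 45.5, 45.1 and 84.0 in resting 3′F and 267, 252 and 221 with LPS. Resting KO replicate 3 lay among the LPS libraries for all 3 genes, as it did for the interferon-stimulated genes.

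All 3 rose in WT, with log2 fold changes of 2.12, 2.46 and 2.49 for Psmb8, Psmb9 and Psmb10 (edgeR adjusted p 0.00348, 0.00428 and 0.00163), and in 3′F, with 1.77, 2.22 and 2.102 (adjusted p 0.00986, 0.00799 and 0.00464). In KO the values of 1.26, 1.197 and 1.14 were not called (adjusted p 0.0554, 0.114 and 0.092), and without resting KO replicate 3 they were 2.49, 2.72 and 2.44 and all called (adjusted p 2.74e-06, 6.86e-06 and 4.06e-06). With all libraries and the same-numbered libraries of a genotype as a block, they were 1.74, 1.82 and 1.66. All were then called (edgeR adjusted p 0.0158, 0.0206 and 0.0271). The difference between the KO and WT responses was not called for any of them (edgeR adjusted p 1.00 for each). As a ratio of CPM per kb, Psmb9 over Psmb6 was 0.0429 ± 0.0067 (SD, n = 3) in resting WT and 0.158 ± 0.066 with LPS, and Psmb10 over Psmb7 was 0.308 ± 0.0093 and 1.29 ± 0.38. Psmb8 over Psmb5 was 1.66 ± 0.073 in resting WT and 3.93 ± 1.32 with LPS. With LPS the ratios were higher in KO, at 0.275, 2.097 and 6.19 in the same order, and no KO library overlapped WT or 3′F. These ratios carry no test. The 6 interferon-stimulated genes summed to 5739 to 8063 CPM in KO with LPS, 1482 to 8205 in WT and 2751 to 4130 in 3′F, and the part of that response in the ratios was not tested.

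**Figure D5:**
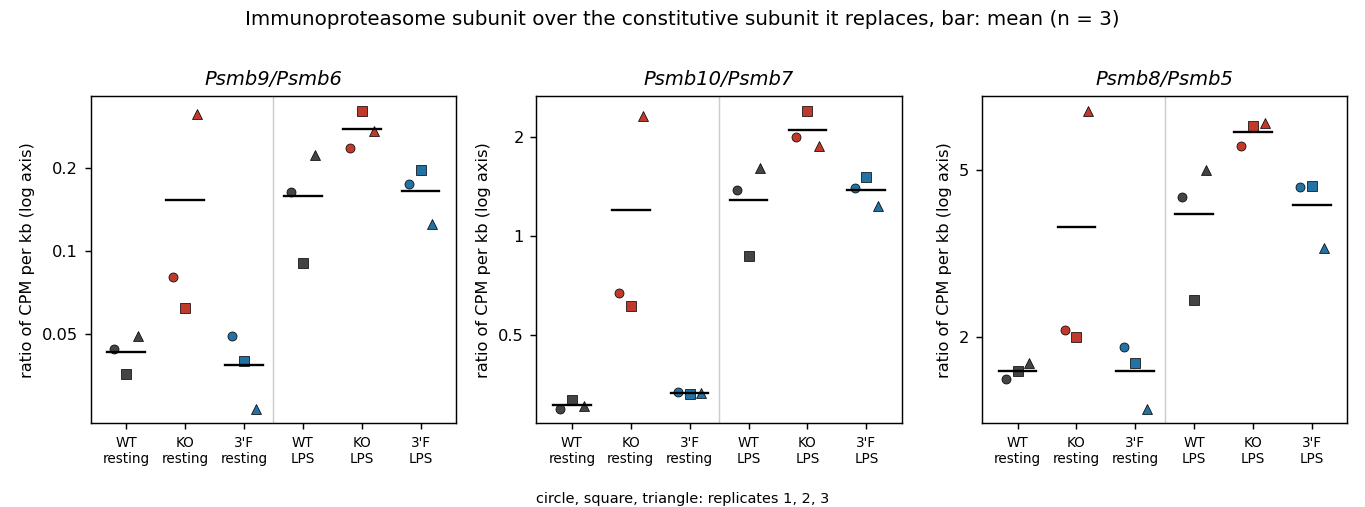
Ratio of CPM per kb (vertical log axes) of Psmb9 to Psmb6, Psmb10 to Psmb7 and Psmb8 to Psmb5 in each library, by group, with a bar for the mean (n = 3). Every LPS group lies above resting WT and resting 3′F, and resting KO replicate 3 lies within or above the range of the KO libraries with LPS in all panels.

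Between KO and WT at rest, 2 of 44 members (4.55%) were called, both lower, a share near the 4.27% of all genes called lower. In either direction 9.4% of all genes were called. The count of members moved with the settings, as given at the end. The members' median log2 fold change was -0.0027, beside 0.02 over all genes. The called members were the lid subunit Psmd8 and the testis subunit Psma8.

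Psmd8, the most abundant lid subunit, held 367, 362 and 317 CPM in resting WT, 242, 237 and 274 in resting KO and 353, 361 and 376 in resting 3′F. All KO libraries lay below all WT and 3′F libraries. Its log2 fold change was -0.47 ± 0.09 in KO against WT (edgeR adjusted p 0.0055) and -0.53 ± 0.09 in KO against 3′F (adjusted p 0.00391), comparisons which share the KO libraries. Without resting KO replicate 3 these were -0.54 and -0.60 and kept their calls, while a fit on the compared groups alone gave -0.48 and -0.54 and lost both (adjusted p 0.0753 and 0.158). With LPS Psmd8 held 365, 384 and 356 CPM in WT, 331, 324 and 318 in KO and 391, 348 and 381 in 3′F. KO again lay below both, but the difference from WT of -0.18 was not called (adjusted p 0.318). LPS raised Psmd8 in KO, by 0.37 on the log2 scale (adjusted p 0.00696), and its WT value of 0.08 and 3′F value of 0.04 were not called. The difference between the KO and WT responses was 0.29 ± 0.13 (adjusted p 0.966). The proliferation genes were also lower in KO at rest, at 490 to 598 CPM beside 866 to 1213 in the other resting groups. With LPS they stood at 393 to 408 CPM in KO, 573 to 780 in WT and 504 to 759 in 3′F. These lay below the resting values of each genotype. Their part in the Psmd8 values was not tested.

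Psma8 had few counts, 59, 28 and 33 in resting WT, 24, 20 and 9 in resting KO and 69, 38 and 10 in resting 3′F. In CPM these were 3.88, 2.11 and 3.19, then 1.48, 1.53 and 1.01, then 3.89, 2.20 and 2.34, with no overlap between KO and the others. The log2 fold change was -1.16 ± 0.30 in KO against WT (edgeR adjusted p 0.0229) and -1.08 ± 0.30 against 3′F (adjusted p 0.0308), and neither was called without resting KO replicate 3 (adjusted p 0.0703 and 0.08). Without both resting replicates 3 they were -0.999 and -0.993, and the difference from WT alone was called (edgeR adjusted p 0.0495 and 0.0918).

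PA28 was higher in the resting KO mean, with log2 fold changes against WT of 0.82 ± 0.27 for Psme1 and 1.19 ± 0.41 for Psme2 that were not called (edgeR adjusted p 0.0659 and 0.0845). Without resting KO replicate 3 they were 0.23 and 0.22 and not called. Over 14 alternative settings Psme1 gained a call in 4 and Psme2 in 3. Against 3′F, Psme1 was called higher in resting KO at 1.05 ± 0.27 (adjusted p 0.02). It was the only member called higher in a comparison of genotypes by the main edgeR test. Its value was 0.47 without resting KO replicate 3 (adjusted p 0.0577) and 0.95 without resting 3′F replicate 3 (adjusted p 0.0652). Psmb10, outside the list, was called higher in resting KO against WT at 1.94 (adjusted p 0.0216). It was 0.64 without resting KO replicate 3 (adjusted p 0.137) and 0.67 without both resting replicates 3 (edgeR adjusted p 0.0221). In KO against 3′F at rest 3 members were called, Psme1 higher and Psmd8 and Psma8 lower, where 12.9% of all genes were called. The median of the members was -0.28 in that comparison and 0.03 without resting 3′F replicate 3.

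With LPS, KO differed from WT and from 3′F in 0 of 44 members by edgeR, with an unadjusted p under 0.05 for 1 and 3 members, while 4.79% and 3.88% of all genes were called and 18% and 16.9% had such an unadjusted p. DESeq2 likewise called 0 members in both, and limma-voom with quality weights 2 and 5. No overlap in the higher direction was found for 7 of 44 members against WT, where 16.9% of all genes had none, and for 16 of 44 against 3′F, where 19.4% had none. Psme1 and Psme2 held their highest levels in KO with LPS, 247 to 258 and 520 to 629 CPM, and no KO library overlapped WT or 3′F. Their log2 fold changes of KO against WT were 0.47 (edgeR adjusted p 0.387) and 0.45 (adjusted p 0.636). Without both resting replicates 3, which leaves these LPS libraries as they are, both were called higher in KO, at 0.45 and 0.44 against WT (adjusted p 0.0141 and 0.0365) and at 0.49 and 0.47 against 3′F (adjusted p 0.0105 and 0.0292). Psmd3 and Psmd11, the members with a miR-146a seed match, had log2 fold changes of 0.19 ± 0.13 and -0.00010 ± 0.11 in resting KO against WT and of 0.13 ± 0.13 and 0.08 ± 0.11 with LPS (edgeR adjusted p 0.407, 1, 0.664 and 0.788). Psmd3 held 61.7, 66.3 and 69.6 CPM in resting WT and 65.5, 63.9 and 96.9 in resting KO, and Psmd11 33.6, 36.5 and 41.1 and then 34.0, 36.5 and 40.8. The groups of both overlapped.

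The 3′F allele gave 0 called members against WT at rest and 0 with LPS by edgeR, with 0 members at an unadjusted p under 0.05 in both, and 0% and 0.00881% of all genes were called, with 4.9% and 0.933% at that unadjusted p. DESeq2 and limma-voom also called 0 in both. At rest 35 of 44 members had a positive log2 fold change, with a median of 0.26, and without resting 3′F replicate 3 this was 15 of 44 with a median of -0.02. The catalytic and activator genes lay between -0.24 (Psme1) and 0.54 (Psmb6). With LPS 39 of 44 members had a negative log2 fold change, with a median of -0.08 and a range of -0.24 to 0.13.

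The LPS responses of KO and of 3′F were each compared with that of WT as an interaction, and 0 of 44 members were called in either (edgeR, smallest adjusted p 0.966 and 0.975), where 0.00881% and 0% of all genes were called. An unadjusted p under 0.05 was reached by 1 member in KO and 0 in 3′F, beside 4.93% and 1.79% of all genes, and DESeq2 and limma-voom called 0 in both. In 3′F 38 of 44 members had a smaller response than WT, with a median difference of -0.36 on the log2 scale. Without resting 3′F replicate 3 the median difference was -0.05, and 14 of 44 were positive. In KO the median difference was 0.03, and 0.23 without resting KO replicate 3.

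Other genes of the pathway were taken from a list of 32 ubiquitin-proteasome genes, 31 of which were tested. LPS raised 8 and lowered 1 of them in WT, raised 8 and lowered 1 in KO, and raised 8 and lowered 2 in 3′F, with medians of 0.18, 0.19 and 0.22 on the log2 scale. Over all genes tested 28.5%, 26.9% and 31.2% were called in these responses, with 16.3%, 14.3% and 17.2% of genes higher. With total counts 0 rose and 3 fell in WT, 1 and 4 in KO, and 3 and 5 in 3′F. Without both resting replicates 3, 10 rose and 3 fell in WT, 11 and 3 in KO, and 9 and 3 in 3′F. Shares over all genes with total counts are not given here, and those without both libraries stand above. The ubiquitin-activating enzyme Uba1 rose most in WT and 3′F, by 0.60 and 0.77 (edgeR adjusted p 0.00508 and 0.00087), and Nfe2l1, a transcription factor known for driving proteasome genes, rose most in KO, by 0.66 (adjusted p 0.000386). Nfe2l1 held 217, 229 and 225 CPM in resting WT and 298, 322 and 305 with LPS, with no overlap, and its log2 fold changes in WT and 3′F were 0.46 and 0.61 (adjusted p 0.00561 and 0.000754). Zfand2a, a zinc finger protein of the proteasome known from arsenite stress, was called lower in each genotype at -0.69, -0.90 and -0.70 (adjusted p 2.44e-05, 1.34e-06 and 2e-05). The ubiquitin receptor Adrm1 rose in WT and 3′F, by 0.41 and 0.49 (adjusted p 0.0444 and 0.0186), and had 0.19 in KO. The core maturation protein Pomp and the small lid subunit Sem1 were not called, at 0.49 and 0.29 in WT, 0.51 and 0.53 in KO, and -0.11 and -0.49 in 3′F. In resting 3′F replicate 3 Pomp held 265 CPM and Sem1 470, against 130 to 139 and 168 to 182 in the other resting 3′F libraries. The KO against WT comparison called 1 pathway gene lower at rest, the deubiquitinase Uchl5, and 1 with LPS, Zfand2a.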

How the data were processed

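Unnormalized read counts were deposited for 21734 protein-coding genes in 18 libraries with an exon length per gene. The authors made directional libraries from ribosome-depleted total RNA, trimmed reads with cutadapt 1.8.3, removed ribosomal reads, aligned to mm10 with HISAT2 2.1.0 and counted with featureCounts 1.5.3 on Gencode M15, by strand and with a mapping quality cutoff, so that reads shared with near-identical copies such as processed pseudogenes were dropped. Because the table holds protein-coding genes alone, miR-146a itself was not analysed here.

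Groups came from the labels. Counts were tested with edgeR 4.0.16 in R 4.3.3: filterByExpr kept 11357 genes, counts were scaled by TMM, and a single quasi-likelihood fit over the 6 group means gave 11 two-sided comparisons, adjusted by Benjamini-Hochberg over all genes and called at an adjusted p under 0.05. The SE is the absolute log2 fold change divided by the square root of F. CPM uses the TMM-scaled library size, and CPM per kb divides by the exon length. Depth sets precision: the shallowest library held 4071084 counts, and counting error is only a part of the spread, which was taken from 3 libraries a group. The steps were tested on simulated data. No 2 replicates were copies: the chi-square of their counts was 6.95 or more per degree of freedom in every pair. Each genotype had 3 mice, and same-numbered resting and LPS libraries share a letter in their names, but the labels do not say that a number marks a mouse. Their deviations correlated at 0.03 to 0.32, above 0.1 in 5 of 9 pairs. Same-numbered libraries of 2 genotypes in the same state correlated at -0.29 to 0.21, above 0.1 in 4 of 18 pairs. Because the labels give no pairing, no block entered the main test, which treats the libraries as independent. A replicate block was run as an alternative.

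The members, lists, motifs and the rule for named genes were chosen with earlier results of these data known. The rule gives every library for Psmb5, Psmb6, Psmb7, Psme1 to Psme4 and Psmb8 to Psmb10, and names up to 3 called members in each direction and comparison, members called in an interaction or removed by the filter, a gene that matches by name alone, the leading called pathway genes, Pomp, Nfe2l1, Adrm1 and Sem1. Other genes with values were chosen after their values were seen. Positions and 3′ UTRs came from Gencode M21 and promoters and the microRNA from RefSeq, all on GRCm38. Paaf1 of the pathway list was not analysed here, and 1 gene of the interferon-stimulated list is not reported here. The alternatives were RLE factors, total counts, no filter, DESeq2 1.42.0, limma 3.58.1 voom with quality weights, the compared groups alone, a replicate block, each library left out, and, chosen after seeing the data, the resting replicates 3 of KO and 3′F left out together.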

Additional observations from a re-analysis of the deposited data

Results flagged for a closer look

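For Psmg1, a chaperone of the 20S core, the libraries of KO and of 3′F gave LPS values of opposite sign, neither of which passed the edgeR test with TMM scaling. The change from each resting library to the LPS library of the same number, on the log2 scale of CPM with 0.5 added, had a mean of 0.206 in KO and of -0.488 in 3′F, a gap of 0.694. All 3 KO values were positive, at 0.19, 0.07 and 0.35, and all 3 of 3′F negative, at -0.06, -0.08 and -1.33. The difference was not tested, since the interactions compare each genotype with WT. Psmg1 stood at 13.8, 14.2 and 13.7 CPM in resting KO and 15.8, 14.99 and 17.6 with LPS, and at 17.4, 16.1 and 43.3 CPM in resting 3′F and 16.7, 15.2 and 16.9 with LPS, so that the mean of 3′F came mostly from resting replicate 3. By edgeR its log2 fold changes were 0.22 in KO and -0.59 in 3′F, neither called (adjusted p 0.618 and 0.125), the 3′F value was -0.08 without that library, and with total counts the KO value was -0.066, of the same sign as 3′F.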

How the results depend on the processing

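Over 26 alternative settings, 766 of 938 values of called genes kept their call, 172 lost it and 0 changed direction. With total counts 8 members were called in WT and 6 in KO. Without a filter, KO against WT at rest gave 4. The compared groups alone gave 9 in the KO response, 0 in KO against WT and in KO against 3′F at rest, and 1 and 2 with LPS. DESeq2 gave 6 in KO against 3′F at rest. Quality weights gave 37, 38 and 33 in the responses of WT, KO and 3′F, 7 and 2 in KO against WT at rest and with LPS, and 6 and 5 in KO against 3′F. The share of all genes called under quality weights is not given here. Without both resting replicates 3, an alternative chosen after seeing the data, the counts in that order were 31, 35, 25, 5, 3, 1 and 2. Leaving out 1 library gave 10 to 22 in WT, 6 to 30 in KO, 8 to 19 in 3′F, 1 to 4 in KO against WT and 1 to 7 in KO against 3′F at rest, and 0 to 0 elsewhere. The count moved over 1.5 times in WT without resting replicates 2 (10) or 3 (11) or LPS replicates 2 (11) or 3 (11). In KO it did so without resting replicates 1 (6), 2 (6) or 3 (30) or LPS replicate 2 (7), and in 3′F without resting replicate 3 (19). In KO against WT at rest it did so without resting WT 1 (1) or 3 (1) or resting KO 1 (4), 2 (4) or 3 (1), and in KO against 3′F without resting KO 3 (1) or 3′F 1 (6) or 2 (7). The replicate block gave 16, 19 and 10 called members in the LPS responses, 2 and 3 in KO against WT and 3′F at rest and 0 elsewhere. The numbers pair no samples by the labels, and under the block the calls of Adrm1 and Psmc5 in WT (adjusted p 0.0539 and 0.057) and of Psmb10 in KO against 3′F (0.0579) were lost. Psmb8, Psmb9 and Psmb10 gained a call in the KO response under the block (edgeR adjusted p 0.0158, 0.0206 and 0.0271). Values of uncalled genes that changed sign were, with total counts, Psme3 in WT (-0.075) and KO (-0.098), Psmg1 (-0.066) and Adrm1 (-0.094) in KO, Psmb7 in 3′F (-0.15), and Psmd3 (-0.011) and Psmd11 (-0.061) in KO against WT with LPS. With quality weights they were Psmb6 (0.49), Pomp (0.26) and Sem1 (0.099) in 3′F and Psmd3 in KO against WT at rest (-0.035), and with the block Psmb6 in 3′F (0.093) and Psmd11 in KO against WT at rest (0.00076). Leaving out 1 library, values ran from -0.025 to 0.30 for Psmd3 and -0.071 to 0.080 for Psmd11 in KO against WT at rest and from -0.21 to 1.17 for Psme2 in KO against 3′F. In the 3′F response they ran from -0.28 to 0.50 for Psmb6, -0.11 to 0.35 for Psmb7, -0.29 to 0.25 for Pomp and -0.74 to 0.11 for Sem1. Without both resting replicates 3, Psmb6 (0.50), Pomp (0.25) and Sem1 (0.11) in 3′F and Psmd3 at rest (-0.0016) changed sign. The cause was not tested. Depth limited Psma8, with 9 to 69 counts a library, and Psmb11.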
